A study of Mus musculus with 9 samples.

Results

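The 33 genes described here encode the enzymes, regulators and carriers of cholesterol and fatty acid synthesis, 21 in the sterol branch and 12 in the fatty acid branch. They were chosen by gene symbol as known members of these pathways, and a probe was taken as a member's where the platform annotation lists that symbol. Of the 33 genes, 30 had at least 1 such probe and 29 had a probe that was detected on enough arrays to be tested, 18 in the sterol branch and 11 in the fatty acid branch, out of 11009 genes tested in all. Hmgcs1, Fdft1 and Acat2 had no probe under their symbol, and the only Acaca probe was not above background on any array.

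Illumina MouseWG-6 v2.0 BeadChips were used for 9 RNA samples, 1 array each, of neural stem and progenitor cells (NSCs/NPCs) that were cultured from the hippocampus or dentate gyrus of adult C57BL6 mice, with 3 samples for each of 3 stages. The proliferation group held floating neurospheres in NeuroCult medium with EGF, bFGF and heparin. The early and late differentiation groups held dissociated cells that were plated on coated dishes, kept at first in proliferation medium and then moved to differentiation medium for 2 or 7 days. Attachment, medium and stage therefore changed together, and the labels name no genetic change in any group. The arrays of a stage are labelled as biological replicates with no statement of separate animals or cultures, so the p-values measure the spread between these arrays, which may be partly technical.

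Cells make cholesterol from acetyl-CoA through mevalonate, farnesyl diphosphate, squalene and lanosterol, and they make fatty acids from the same acetyl-CoA through malonyl-CoA, palmitate, elongases and desaturases. The sterol regulatory element-binding proteins, made from Srebf1 and Srebf2, switch on the genes of both branches, and sterols hold them in the endoplasmic reticulum through Scap and the Insig proteins. Dividing neural cells need both products for new membrane, and in the adult brain astrocytes are known as makers of cholesterol, which they pass on with apolipoprotein E.

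The arrays detected between 18310 and 19919 probes each. Levels are quantile-normalized intensities on a log2 scale, a difference of 1 being a factor of 2, and a gene was called changed at an adjusted p below 0.05 (limma, Benjamini-Hochberg over the 11009 genes) with a fold of at least 1.5, which is 0.58 on the log2 scale. The mean signal before normalization was 218 to 228 on the proliferation arrays, 157 to 171 on the early and 173 to 180 on the late arrays, so every change is relative to the median gene. Without normalization between arrays the median gene lay at -0.41 in early differentiation and -0.31 in late differentiation against proliferation, and the lower and higher calls over all genes turned from 1671 and 1854 to 4305 and 804 (early), from 1788 and 1941 to 3754 and 1026 (late), and from 259 and 173 to 153 and 307 (late against early). A first BeadChip carried proliferation and late differentiation, which were thus compared within 1 BeadChip, and a second carried early differentiation, so for any early comparison the effects of BeadChip and stage cannot be told apart. Of 10 proliferation markers 7 were tested, all were called lower at both differentiation stages, and their summed linear level was 2118 to 2832 in proliferation, 278 to 294 in early and 249 to 283 in late differentiation. All 10 astrocyte markers were tested, 6 were called higher in early and 7 in late differentiation, and their sum ran from 7645 to 8448 in proliferation, from 23207 to 26330 in early and from 20750 to 24477 in late differentiation. All 6 ependymal markers were called higher at both stages (sums of 213 to 247, 1378 to 1817 and 1786 to 2239 in the same order). The 7 oligodendrocyte progenitor markers summed to 9050 to 11468, 5065 to 5895 and 2338 to 3781, but they went both ways, with 3 called lower and 3 higher at the early and 3 lower and 2 higher at the late stage. Olig1 and Olig2 fell, whereas Pdgfra and Gpr17 rose at both stages. Sums of linear levels mostly follow the brightest markers. Olig1 was at 13.07 to 13.42 in proliferation, where Nkx2-2, the next brightest of its list, was at 7.47 to 8.41. Among the astrocyte markers Gja1 and Sox9 were the brightest, and Sox9 is also listed among the stem and progenitor markers. Of the mature oligodendrocyte markers 4 of 10 were tested (192 to 324, 672 to 747 and 479 to 516), without Mbp, Mog, Mag and Mobp, which failed the detection filter. Of the microglia, endothelial and fibroblast markers 1 of 7, 1 of 6 and 0 of 5 passed that filter. Of 7 tested markers of neural stem and progenitor cells 3 were called lower (among them Nes and Hes1) and 4 higher (among them Sox2 and Vim) at the early stage, and 2 lower and 3 higher at the late stage. Of 6 tested neuron markers 1 was called higher at the early stage (Rbfox3, 1.23) and 0 at the late stage, where Dcx of immature neurons, detected on 0 proliferation, 2 early and 3 late arrays, was at 0.58 ± 0.11 (adjusted p = 0.000952), just under the fold minimum. In these bulk samples fewer cells of a type and less RNA per cell cannot be told apart, and the part of the changing cell types and of cell division in the results below was not tested.

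**Figure D1:**
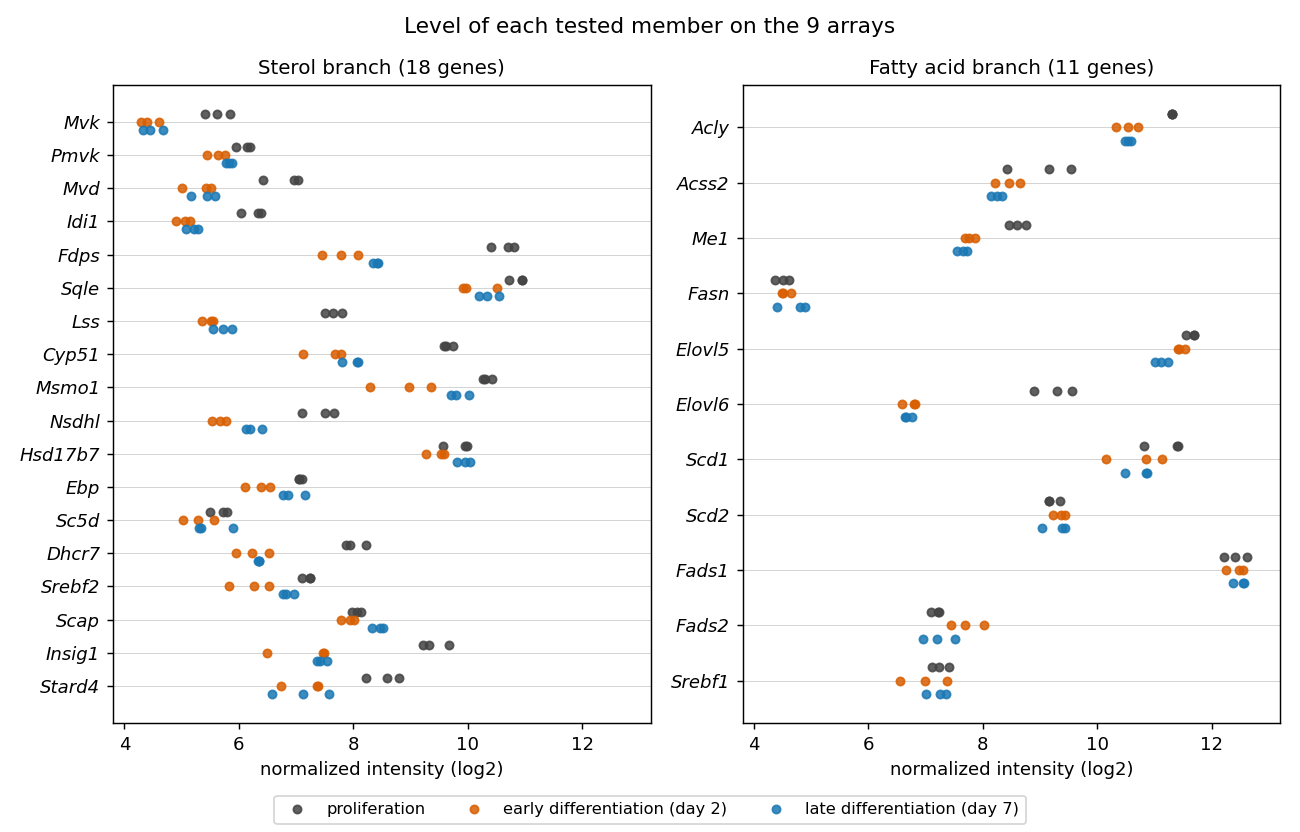
Normalized intensity (log2, horizontal axis) of each tested member on the 9 arrays, with 1 point per array and 1 row of points per stage, for the 18 sterol branch genes (left) and the 11 fatty acid branch genes (right). Fdps, Lss, Cyp51, Insig1 and Elovl6 had proliferation levels far above those of both differentiation stages, while the points of Scd2, Fads1, Fasn and Srebf1 overlapped across stages.

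Most of the sterol branch fell in early differentiation. Of 18 tested members 14 were called lower and 0 were called higher than in proliferation, where 15.2% of all tested genes were called lower and 16.8% higher. With 1 probe a gene, all 18 had a negative log2 fold change, with a median of -1.30 beside 0.00 over all genes. The arrays of the 2 stages did not overlap in 15 of the 18, all lower, against 30.0% of all genes.

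In the first part of the pathway, from mevalonate to farnesyl diphosphate, 4 of 5 tested genes were called lower. Fdps, the synthase of farnesyl diphosphate, which feeds both sterols and protein prenylation, changed most of all tested members at the early stage. Its level was 10.80, 10.70 and 10.40 on the proliferation arrays, 7.79, 8.09 and 7.46 on the early arrays and 8.44, 8.42 and 8.34 on the late arrays. Both differentiation stages lay wholly below proliferation and the late arrays wholly above the early ones. The early difference was -2.85 ± 0.16 (SE, n = 3 arrays per stage), a 7.21-fold fall (limma adjusted p = 1.76e-07). A second, dimmer Fdps probe also fell (-0.99). That probe was detected on 3 proliferation, 0 early and 2 late arrays, so it passed the detection filter only with the proliferation arrays. Mvd, the decarboxylase that makes isopentenyl diphosphate, stood at 7.04, 6.96 and 6.42 in proliferation and at means of 5.31 ± 0.27 in early and 5.39 ± 0.21 (SD, n = 3) in late differentiation, without overlap, and changed by -1.50 ± 0.19 at the early stage. Idi1, which isomerizes that product, fell by a similar amount (-1.22 ± 0.12), from 6.04 to 6.38 over the proliferation arrays to 4.90 to 5.15. Mvk, the kinase of mevalonate, fell as well (-1.20 ± 0.14), but its probe was detected on only 1 array of each differentiation stage. Its levels in differentiation (4.29 to 4.67) therefore sat close to background. Detected on 3 proliferation arrays, it also passed the detection filter only with the proliferation arrays. Mvk is kept in the counts of lower members, and its late call ended with an offset of 50 (-0.57). Pmvk, the next kinase, did not reach the fold minimum (-0.48 ± 0.11, adjusted p = 0.00416).

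Between squalene and cholesterol, 7 of 9 tested genes were called lower at the early stage. Lss, which closes squalene epoxide to lanosterol, was at 7.81, 7.51 and 7.65 in proliferation, 5.55, 5.52 and 5.36 in early and 5.88, 5.73 and 5.55 in late differentiation. The early fall was 4.52-fold (-2.18 ± 0.12, limma adjusted p = 1.65e-07). A second, dim Lss probe (mean 4.58) that passed the detection filter did not share it. That probe was at -0.12 early (adjusted p = 0.600) and -0.00 late (adjusted p = 0.992). Cyp51, the cytochrome P450 that demethylates lanosterol, was at 9.74, 9.62 and 9.59 in proliferation, 7.68, 7.79 and 7.13 in early and 8.08, 8.07 and 7.81 in late differentiation. It fell 4.34-fold at the early stage (-2.12 ± 0.16). Dhcr7, the reductase of the last step, fell 3.45-fold (-1.79 ± 0.15) and Nsdhl, a sterol dehydrogenase that helps remove methyl groups from the ring, 3.39-fold (-1.76 ± 0.15), and all 4 tested Nsdhl probes were called lower, between -1.26 and -1.76. For both genes the lowest proliferation array lay above the highest early array.

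Msmo1, Sqle and Ebp fell as well but differed in what came later. The Msmo1 product works with that of Nsdhl on the same methyl groups, and its level was 10.42, 10.30 and 10.27 in proliferation, 9.35, 8.98 and 8.29 in early and 10.02, 9.79 and 9.70 in late differentiation, with an early change of -1.45 ± 0.22. Sqle, the epoxidase that commits squalene to sterols, fell by less (-0.75 ± 0.16, from 10.95, 10.95 and 10.72 to 9.91, 10.51 and 9.97), and its second probe moved alike (-0.83). Ebp, a sterol isomerase, fell by 0.72 ± 0.14. Hsd17b7, a sterol ketone reductase (-0.37 ± 0.14, adjusted p = 0.0426), and Sc5d, a sterol desaturase (-0.39 ± 0.18, adjusted p = 0.0985), were not called. The other, dimmer Hsd17b7 probe was at 0.13 (adjusted p = 0.413).

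Among the regulators and carriers 3 of 4 were called lower. Insig1, which holds the Scap complex in the endoplasmic reticulum and is itself switched on by the sterol regulatory element-binding proteins, was at 9.68, 9.33 and 9.22 in proliferation, 7.49, 7.47 and 6.50 in early and 7.54, 7.41 and 7.37 in late differentiation. The early fall was 4.78-fold (-2.26 ± 0.24), and 2 further probes of the gene, each kept by the detection filter, gave -2.38 and -2.60. Stard4, a carrier of free cholesterol between membranes, fell by 1.37 ± 0.26 (adjusted p = 0.00111). Srebf2 itself, the transcription factor of the sterol branch, was at 7.24, 7.24 and 7.11 in proliferation and 6.26, 6.53 and 5.82 in early differentiation, a 1.99-fold fall (-0.99 ± 0.16) that a second probe shared (-0.94). Scap, the escort of these factors, did not pass the test (-0.15 ± 0.10, adjusted p = 0.252). A dimmer Scap probe leaned upward, at 0.50 early (adjusted p = 0.0269) and 0.56 late, under the fold minimum. Between day 2 and day 7 that probe was at 0.06.

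The regions in front of 4 of the members that fell together and of Elovl6, the fatty acid gene with the largest fall, are printed from RefSeq (GRCm38.p6), each from 250 bases before to 50 bases after the annotated start of the gene and read 5′ to 3′ on its strand. Lss, Cyp51, Insig1 and Elovl6 had the largest early falls of the 26 members with an entry, and Mvk held the most CCAAT matches among them. Capitals mark the letters CCAAT or, on the other strand, ATTGG, which is the box bound by the factor NF-Y, and the E-box letters CACGTG. The positions were Lss at chr10:76531355-76531654 (plus strand), Cyp51 at chr5:4104648-4104947 (minus), Insig1 at chr5:28071162-28071461 (plus), Mvk at chr5:114444019-114444318 (plus) and Elovl6 at chr3:129532136-129532435 (plus).
Lss: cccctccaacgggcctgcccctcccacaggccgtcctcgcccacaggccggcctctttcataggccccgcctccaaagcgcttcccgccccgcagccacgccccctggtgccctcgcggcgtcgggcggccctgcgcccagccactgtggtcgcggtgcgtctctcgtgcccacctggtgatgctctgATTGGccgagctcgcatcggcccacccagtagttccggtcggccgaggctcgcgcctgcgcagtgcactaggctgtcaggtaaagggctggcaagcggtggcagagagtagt
Cyp51: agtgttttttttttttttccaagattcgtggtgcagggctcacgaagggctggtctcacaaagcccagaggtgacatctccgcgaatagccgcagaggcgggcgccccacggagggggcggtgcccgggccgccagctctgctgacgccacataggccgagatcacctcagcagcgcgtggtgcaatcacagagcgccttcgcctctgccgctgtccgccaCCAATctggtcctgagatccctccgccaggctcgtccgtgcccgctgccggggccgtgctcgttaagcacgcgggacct
Insig1: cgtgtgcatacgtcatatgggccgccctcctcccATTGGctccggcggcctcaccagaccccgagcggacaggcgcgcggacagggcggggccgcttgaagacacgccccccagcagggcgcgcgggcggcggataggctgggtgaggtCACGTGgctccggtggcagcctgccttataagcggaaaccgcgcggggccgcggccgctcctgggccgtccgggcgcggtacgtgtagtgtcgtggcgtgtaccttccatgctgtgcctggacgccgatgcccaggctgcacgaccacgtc
Mvk: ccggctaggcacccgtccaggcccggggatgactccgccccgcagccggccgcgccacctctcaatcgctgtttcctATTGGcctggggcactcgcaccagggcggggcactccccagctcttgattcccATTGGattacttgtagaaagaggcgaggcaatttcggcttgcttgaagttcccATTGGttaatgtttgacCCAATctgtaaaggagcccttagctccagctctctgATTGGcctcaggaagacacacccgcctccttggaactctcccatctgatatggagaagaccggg
Elovl6: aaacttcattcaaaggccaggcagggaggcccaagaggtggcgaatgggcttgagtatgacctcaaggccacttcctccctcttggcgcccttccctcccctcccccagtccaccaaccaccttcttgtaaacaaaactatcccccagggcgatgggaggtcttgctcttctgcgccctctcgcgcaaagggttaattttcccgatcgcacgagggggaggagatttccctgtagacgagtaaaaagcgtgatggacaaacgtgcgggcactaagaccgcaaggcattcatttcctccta
Counted from the start site to the first base of the match, the CCAAT letters began at -62 in Lss, -29 in Cyp51, -216 in Insig1 and at -173, -120, -67, -50 and -14 in Mvk, the Insig1 E-box began at -101, and Elovl6 held none of the motifs searched.

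Windows of this kind were at hand for 26 of the 33 members, 17 of the sterol and 9 of the fatty acid branch, some with several starts. CCAAT on either strand was in 15 of 21 sterol windows (71.4%) and 7 of 12 fatty acid windows (58.3%), and in 37.4% of all 32851 windows of the same length. The E-box, which reads the same on both strands, was in 6 of 21 sterol windows (28.6%), 2 of them overlapping Scap windows that share 1 match, in 1 of 12 fatty acid windows (8.33%) and in 7.15% of all windows. The sterol regulatory element in its classical spelling TCACNCCAC, searched on both strands, was in 1.24% of all windows and in the window of 1 member, Hmgcs1, which had no probe under its symbol. No motif contains another, and a pair of CCAAT matches in Fasn overlapped. These matches describe letters only.

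**Figure D2:**
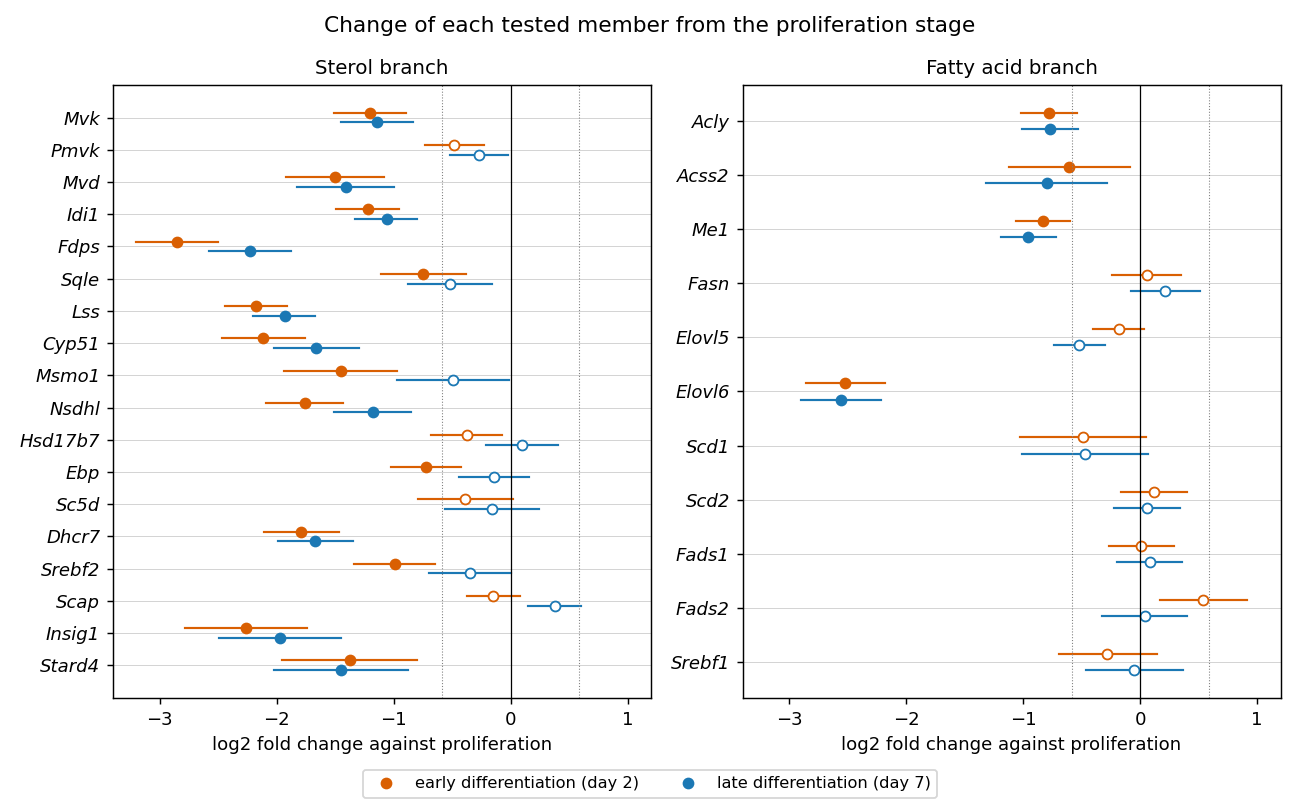
Log2 fold change of each tested member against proliferation (horizontal axis) in early and late differentiation, with the fitted value as a point and its 95% confidence interval as a line, filled where the gene was called, and dotted lines at the fold minimum of 1.5. Points of 14 sterol branch genes are filled at the early and 10 at the late stage, and those of 4 fatty acid branch genes at each, with Elovl6 far to the left of the rest of its branch.

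The fatty acid branch fell in part. Of its 11 tested genes 4 were called lower in early differentiation and 0 higher, where 15.2% of all genes were called lower and 16.8% higher. The branch median was -0.28. With no overlap of arrays 4 members (Acly, Me1, Elovl6 and Elovl5) were lower and 1 (Fads2) higher. Over all genes 30.0% were lower without overlap, so 4 of 11 is close to that share. Of all 11009 genes 3445 were higher without overlap. The 4 genes called lower early (Acly, Acss2, Me1 and Elovl6) were also called lower in late differentiation, where 16.2% of all genes were called lower and 17.6% higher. These 4 called genes were the 3 that supply acetyl-CoA or reducing power and 1 of the 2 tested elongases. The synthesis and regulator steps had 1 tested gene each, so whether the branch split by step cannot be decided.

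Acly, which cleaves citrate to acetyl-CoA in the cytosol, was at 11.31, 11.31 and 11.30 in proliferation, 10.54, 10.71 and 10.32 in early and 10.54, 10.59 and 10.48 in late differentiation. Its changes of -0.78 ± 0.11 and -0.77 ± 0.11 differed by less than their errors. Me1, the malic enzyme that yields NADPH, was at 8.60, 8.75 and 8.46 in proliferation, 7.76, 7.69 and 7.86 in early and 7.55, 7.66 and 7.73 in late differentiation, which are changes of -0.83 ± 0.11 and -0.96 ± 0.11. Acss2, which makes acetyl-CoA from acetate, spread widely in proliferation (9.54, 9.15 and 8.43) against 8.64, 8.46 and 8.21 in early and 8.24, 8.34 and 8.14 in late differentiation. Its early fall (-0.61 ± 0.23, limma adjusted p = 0.0494) sat at the threshold and the arrays overlapped. Leaving out any 1 array other than proliferation replicate 3 ended that call, with log2 fold changes of -0.36 to -0.71. Over all its alternatives the adjusted p lay between 0.000873 and 0.193. Without proliferation replicate 1 the late call (-0.80 ± 0.23, adjusted p = 0.0136) ended too (-0.55, adjusted p = 0.0521). The late call also ended with the mean of the kept probes (-0.51), with a floor of 16 and with the deposited value table (both -0.83). Its adjusted p was 0.000278 to 0.0543 over all its alternatives. A second, dim Acss2 probe, detected on 2 proliferation, 0 early and 1 late arrays, was not called. That probe was at -0.18 early (adjusted p = 0.257) and -0.22 late (adjusted p = 0.177).

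Elovl6, the elongase that carries palmitate to stearate, had the largest fall of the branch. It was at 9.56, 9.29 and 8.90 in proliferation, 6.80, 6.82 and 6.59 in early and 6.77, 6.64 and 6.65 in late differentiation. The fall was 5.72-fold at the early (-2.52 ± 0.15, limma adjusted p = 3.84e-07) and 5.91-fold at the late stage (-2.56 ± 0.15, adjusted p = 2.89e-07), and the 2 differentiation stages overlapped. A second, dim probe was detected on the 3 proliferation arrays and on no array of either differentiation stage. It passed the detection filter through proliferation alone, so its lower values (-0.72 and -0.70) are no separate support. Elovl5, an elongase of polyunsaturated chains, was at 11.69, 11.69 and 11.55 in proliferation, 11.43, 11.54 and 11.41 in early and 11.24, 11.12 and 11.01 in late differentiation. Its late difference passed the p threshold but not the fold minimum (-0.52 ± 0.10, adjusted p = 0.00109).

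None of the 4 desaturases was called at either stage. Fads1, which desaturates polyunsaturated chains, was at 12.62, 12.40 and 12.22 in proliferation, 12.55, 12.47 and 12.25 in early and 12.56, 12.55 and 12.37 in late differentiation, and the 95% interval of its change was -0.27 to 0.29 early and -0.20 to 0.36 late. Without normalization between arrays, Fads1 turned to a called change of -0.79 at the early stage; the median gene moved by -0.41 in that setting. Scd2, a stearoyl-CoA desaturase of the brain, had intervals of -0.16 to 0.40 and -0.22 to 0.34. Scd1, its relative, was at 11.41, 11.39 and 10.81 in proliferation, 11.13, 10.85 and 10.15 in early and 10.85, 10.86 and 10.49 in late differentiation, and was not called (-0.49 ± 0.24, adjusted p = 0.115, and -0.47 ± 0.24, adjusted p = 0.129). It was called lower at the early stage without proliferation replicate 3 (-0.69) or early replicate 1 (-0.70) and at the late stage without proliferation replicate 3 (-0.66). The 2 Fads2 probes disagreed. The brighter one was at 7.21, 7.24 and 7.10 in proliferation, 7.69, 8.02 and 7.45 in early and 7.19, 7.51 and 6.96 in late differentiation (0.54 ± 0.17, adjusted p = 0.0188, and 0.04 ± 0.17, adjusted p = 0.875), and it was called higher at the early stage without early replicate 3 (0.67). The dimmer one was called higher at both stages (0.97 and 0.81).

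Fasn, the fatty acid synthase, lay at 4.36 to 4.89 on all 9 arrays and was detected on 7 of them, so this probe gives little information about the level of the gene. Srebf1, the transcription factor of the fatty acid branch, was at 7.24, 7.40 and 7.11 in proliferation, 6.99, 7.38 and 6.55 in early and 7.35, 7.25 and 7.00 in late differentiation. It was not called (-0.28 ± 0.19, adjusted p = 0.238, and -0.05 ± 0.19, adjusted p = 0.847), with overlap among all stages, unlike Srebf2. The difference between the changes of these 2 genes was not tested.

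After 7 days the sterol branch was still low, in part. Of 18 tested members 10 were called lower and 0 higher than in proliferation, 16 of 18 had a negative value, the branch median was -1.10 beside 0.01 over all genes, and 14 were lower with no overlap of arrays, against 29.9% of all genes. Fdps (-2.23 ± 0.16), Insig1 (-1.97 ± 0.24), Lss (-1.93 ± 0.12), Dhcr7 (-1.67 ± 0.15) and Cyp51 (-1.66 ± 0.16) were the furthest down, followed by Stard4 (-1.45 ± 0.26), Mvd (-1.41 ± 0.19), Nsdhl (-1.18 ± 0.15), Mvk (-1.14 ± 0.14) and Idi1 (-1.06 ± 0.12). These 10 were also called at the early stage, and both comparisons share the proliferation arrays. Sqle (-0.52 ± 0.16, adjusted p = 0.0201), Msmo1 (-0.49 ± 0.22, adjusted p = 0.0784), Srebf2 (-0.35 ± 0.16, adjusted p = 0.0839) and Ebp (-0.14 ± 0.14, adjusted p = 0.424) were called lower at the early stage and not at the late stage. Sqle was called at the late stage without proliferation replicate 3 (-0.59) or late replicate 2 (-0.61). Scap leaned the other way (0.38 ± 0.10, adjusted p = 0.00949) but stayed under the fold minimum. A second Hsd17b7 probe, dimmer than the first at a mean of 4.92, was called higher in late differentiation (0.76), where the brighter one was not (0.10).

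The direct comparison of the 2 differentiation stages asked how far the members differed between day 2 and day 7. These stages were on different BeadChips, so a rise with time and an effect of BeadChip cannot be told apart. The sterol branch was higher at day 7 in 17 of 18 members, with a median of 0.26 beside 0.01 over all genes, and 9 were higher with no overlap of arrays, against 14.7% of all genes. With 1 probe a gene, only Msmo1 (0.96 ± 0.22, limma adjusted p = 0.0268), Srebf2 (0.64 ± 0.16, adjusted p = 0.0347) and Fdps (0.62 ± 0.16, adjusted p = 0.0429) were called, 3 of 18, where 1.57% of all genes were called higher and 2.35% lower. Scap (0.52 ± 0.10, adjusted p = 0.0149), Ebp (0.58 ± 0.14, adjusted p = 0.0295) and Nsdhl (0.58 ± 0.15, adjusted p = 0.0412) passed the p threshold but not the fold minimum, and 2 of the 4 Nsdhl probes were called higher (0.77 and 0.62), as was the dim second Hsd17b7 probe (0.64, adjusted p = 0.0130 over all kept probes, against 0.47, adjusted p = 0.0729, for the brighter one). As a description, expressed as a share of the log2 fall from proliferation to day 2, Ebp had regained 80.9%, Msmo1 66.1% and Srebf2 64.9% by day 7, while Fdps had regained 21.6%, Cyp51 21.5%, Insig1 12.7%, Lss 11.1% and Dhcr7 6.6%. The early arrays enter both parts of these shares, which were taken only for members called lower at day 2, and this favours a regain. Stard4 (-0.07 ± 0.26) was the single sterol member below its early level.

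The 3 calls were near the threshold. Fdps and Srebf2 kept theirs only without proliferation replicate 3 or early replicate 2 and lost them without any of the other arrays (adjusted p up to 0.104 and 0.0991), and Msmo1 lost its call without early replicate 2, late replicate 1 or late replicate 2 (up to 0.0849), while the 3 values stayed positive, at 0.45 or more, in these fits. Over all alternatives the adjusted p ran from 0.0141 to 0.113 for Fdps, from 0.0131 to 0.102 for Srebf2 and from 0.00632 to 0.0955 for Msmo1. Ebp was called without early replicate 3 (0.69) or late replicate 1 (0.66).

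**Figure D3:**
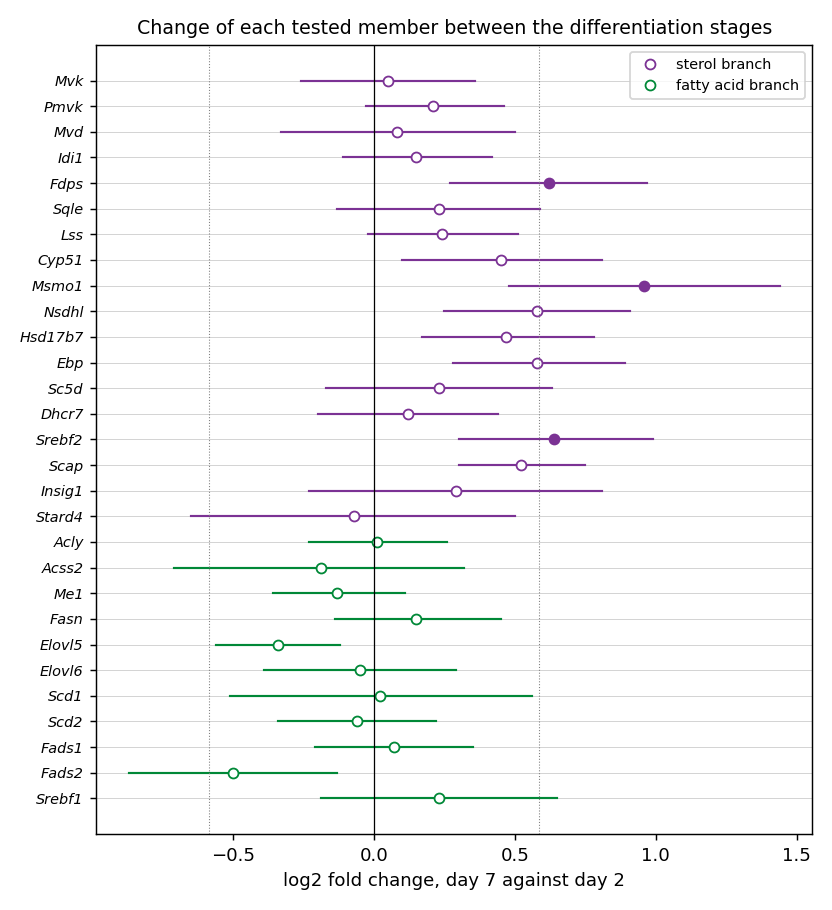
Log2 fold change of late (day 7) against early (day 2) differentiation for each tested member (horizontal axis), with the fitted value as a point and its 95% confidence interval as a line, filled where called, and dotted lines at the fold minimum of 1.5. The sterol branch lies right of 0 in 17 of 18 genes with 3 filled points, and the fatty acid branch lies on both sides, 5 genes right and 6 left, with none filled.

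In the fatty acid branch 0 of 11 members were called between the differentiation stages in either direction, and the median was -0.05. Over all genes 1.57% were called higher and 2.35% lower, so 0 of 11 is close to the share over all genes. The 1 member without overlap was Elovl5, lower at day 7 (-0.34 ± 0.10, adjusted p = 0.0670). Of all 11009 genes 1538 were lower without overlap. Fads2 did not pass the test (-0.50 ± 0.17, adjusted p = 0.0972). The 4 members that had fallen by day 2 stayed within 0.19 of their early levels, with Acss2 at -0.19 ± 0.23, Me1 at -0.13 ± 0.11, Elovl6 at -0.05 ± 0.15 and Acly at 0.01 ± 0.11. Averaged over its 18 genes the sterol branch was at 8.18, 8.12 and 7.89 in proliferation, 6.84, 6.91 and 6.51 in early and 7.10, 7.11 and 7.12 in late differentiation, so the 3 late arrays lay above all early arrays. The mean of the 11 fatty acid genes was 9.36, 9.30 and 9.05 in proliferation, 8.87, 8.89 and 8.59 in early and 8.75, 8.80 and 8.60 in late differentiation, with early and late overlapping.

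**Figure D4:**
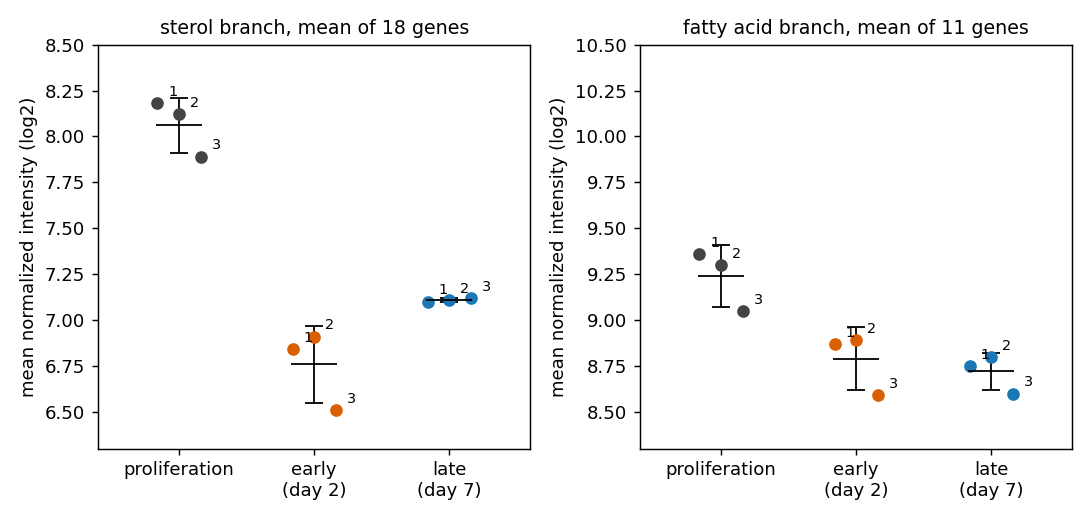
Mean normalized intensity (log2, vertical axis, not starting at 0) of the tested sterol (left, 18 genes) and fatty acid branch members (right, 11 genes) on each array, labelled by replicate number, with the mean and SD of the 3 arrays of a stage as a horizontal mark and bar. Proliferation lies above both other stages in both branches, and replicate 3 is the lowest array of its stage in all but the late sterol mean.

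The third replicates stood apart for these genes. Replicate 3 was the lowest array of its stage for 17 of 18 sterol and 10 of 11 fatty acid members in proliferation and for 15 of 18 and 10 of 11 in early differentiation, where it was the lowest for 37.1% and 35.5% of all genes. In late differentiation it was the lowest for 8 of 18 and 8 of 11. With the third replicates of all stages left out, the sterol counts were 14 lower at the early stage, 10 lower at the late stage and 2 higher between day 2 and day 7, and the fatty acid counts were 4 lower at each stage, with 1 higher (Fads2, 0.63) at the early stage.

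Genes of the same pathways outside the 33 members moved in part with them. Of 16 further genes of sterol synthesis and its control 9 were tested, 4 were called lower in early and 3 in late differentiation, and 0 higher. Over all genes 15.2% were called lower and 16.8% higher early, and 16.2% and 17.6% late. Lbr, a nuclear envelope protein with sterol reductase activity, was at 9.21 to 9.25 in proliferation, 6.76 to 7.04 in early and 6.77 to 7.06 in late differentiation (-2.36 ± 0.11 and -2.28 ± 0.11). Tmem97, a membrane protein of sterol transport, changed by -2.26 ± 0.15 and -1.77 ± 0.15 and Nus1, a subunit of the enzyme that turns farnesyl diphosphate into dolichol precursors, changed by -1.35 ± 0.11 and -1.30 ± 0.11. Tm7sf2, a further sterol reductase, was called at the early stage alone (-0.61 ± 0.17).

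Of 33 further genes of fatty acid synthesis 28 were tested, with 5 called lower and 8 higher at each differentiation stage, where 15.2% of all genes were lower and 16.8% higher early and 16.2% and 17.6% late. Acss1, the mitochondrial counterpart of Acss2, rose (2.03 ± 0.18 and 1.45 ± 0.18), as did Gpam, whose product starts glycerolipid synthesis (1.90 ± 0.12 and 1.42 ± 0.12), Fads3, a relative of the tested desaturases (1.74 ± 0.11 and 1.84 ± 0.11), and Mid1ip1, an activator of acetyl-CoA carboxylase (1.32 ± 0.13 and 1.44 ± 0.13). Among the genes that fell were Acsl5, an acyl-CoA synthetase (-1.40 ± 0.14 and -1.09 ± 0.14), and Hsd17b12, a reductase of the elongation cycle (-1.10 ± 0.13 and -1.21 ± 0.13). Acsl6, the acyl-CoA synthetase of brain, rose at both stages, by 1.81 ± 0.12 at the late one, and was the one gene of this list called between day 2 and day 7 (0.81 ± 0.12, adjusted p = 0.00473).

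Of 17 genes of sterol export and turnover 12 were tested, with 2 called higher and 1 lower at the early stage, a share of higher calls close to the 16.8% over all genes, and 4 higher and 1 lower at the late stage (17.6% and 16.2% of all genes). Apoe, the lipoprotein that carries cholesterol out of astrocytes and itself an astrocyte product, was at 8.93, 8.48 and 8.35 in proliferation, 12.05, 12.06 and 11.53 in early and 12.22, 12.19 and 11.56 in late differentiation (3.29 ± 0.22 and 3.40 ± 0.22). Cyp7b1, an oxysterol hydroxylase, rose by 1.85 ± 0.27 and 1.41 ± 0.27. Nr1h3, a sterol-sensing nuclear receptor, and Abcg4, a sterol transporter, were called higher at the late stage alone (0.92 ± 0.18 and 0.77 ± 0.14). Abcg4 also leaned upward at the early stage, without overlap of arrays (0.34 ± 0.14, adjusted p = 0.0611). Lipa, the lysosomal lipase that frees cholesterol, fell (-0.75 ± 0.23 and -1.42 ± 0.23).

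Over the 9 arrays, which share 3 stages and 2 BeadChips, each member was set beside the mean of the other sterol members as a description. Pearson's r was 0.95 or more for Mvk, Pmvk, Mvd, Idi1, Fdps, Lss, Cyp51, Nsdhl, Dhcr7 and Insig1, and also for Acly (0.96) and Elovl6 (0.95) of the fatty acid branch, and it was -0.01 for Scap, -0.25 for Fasn and Scd2, 0.06 for Fads1 and -0.50 for Fads2. Outside the members, the genes most like the sterol mean were Vdac2 (0.991), Cycs, Ly96, Mdh2, Pold2, Ctu1, Got2, Tmem97, Hnrnpa1 and Ppia (0.982). Each of these 10 genes was higher on every proliferation array than on any array of the other stages. The sterol mean by which they were chosen has the same order, so this is no separate result.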

How the data were processed

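Total RNA of 9 samples was hybridized to MouseWG-6 v2.0 BeadChips. The authors scanned them and exported from GenomeStudio (version not given in the sources used here) a non-normalized table of the intensity of each probe, and the deposited table pairs each intensity with a detection p-value, the rank of the probe against the array's background. Its intensities still contain background. A second deposited table holds background-subtracted intensity scaled to 1 mean per array and served as an alternative only. Gene names came from the platform annotation, in which 34885 of 45281 probes have 1 symbol, 18 several and 10378 none.

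Background was corrected with limma 3.58.1 (R 4.3.3; normal-exponential model, background from the detection p-values, offset 16, which compresses changes of dim probes), followed by quantile normalization and log2. A probe was kept if 3 or more arrays gave it a detection p-value below 0.05 (20935 probes), and the brightest kept probe stood for a gene; further probes of members were fitted with all kept probes. A mean per stage was fitted over all 9 arrays (lmFit, eBayes), and errors are SE of that fit unless given as SD. Intervals are 95% intervals of the fit. The number of arrays limits the precision. The fit was tested on simulated data.

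The members, gene lists and motifs were chosen with earlier results of these data known. The text may name every member, genes of the other lists called in at least 1 comparison (up to 4 per list and direction by size) and the 10 non-members most correlated with the sterol mean, while counts, genes without a probe and markers were named after their values were seen.

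Same-numbered arrays deviated together from their stage means (correlations of 0.239, 0.204 and 0.308 for early against proliferation, 0.318, 0.172 and 0.386 for late against early). The replicate numbers may therefore pair those samples, which the labels do not state. For late against proliferation (0.064, 0.079 and 0.142) not every value reached the minimum of 0.1. Arrays with different numbers were not compared in this way. The fit has no block, and the replicate block is an alternative. Alternatives covered the normalization, offset, floor, filter, probe choice, call rule, arrays fitted and each array left out in turn. No 2 arrays were identical.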

Additional observations from a re-analysis of the deposited data

How the results depend on the processing

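Of 35 member calls, 30 to 35 remained in each of the 23 alternatives. The counts of lower members in each branch stayed within 1.5 times the reported ones except without normalization between arrays, where 8 fatty acid genes were called lower at the early stage, Fads1 turned to -0.79 and 7 sterol genes were called higher between day 2 and day 7. That last count, 3 in the report, depended most on the setting. It was 1 with an offset of 50, 6 with no fold minimum, and 0 with subtracted background, with a floor of 16, with the deposited value table, with no filter on dim probes, and with only the 6 arrays compared. It ran from 0 to 3 with 1 array left out. The causes were not tested.

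Higher calls appeared for 1 fatty acid gene at the early stage with the mean of the kept probes, with no fold minimum and with the third replicates of all stages left out (an alternative chosen after seeing the data), and for 0 to 1 with 1 array left out. With no fold minimum 1 sterol gene was called higher at the late stage. Over all genes, the calls between day 2 and day 7 (432) went to 228 with an offset of 50, 241 with subtracted background and 250 to 481 with 1 array left out. With no fold minimum the 3 comparisons gave 5746 (early), 5939 (late) and 768 (late against early) calls. With the replicate block, the paired fit gave 14, 10 and 3 sterol calls in the 3 comparisons and changed no member's call. Dim probes (Fasn, Mvk, Acaca) limit what can be said of their genes.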
